A study of Mus musculus with 18 samples.

Results

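The 10 genes described here encode transcription factors that set the fate of photoreceptors: Crx, Otx2, Nrl, Nr2e3, Rorb, Prdm1, Neurod1, Mef2d, Thrb and Rxrg. They were chosen by name, as 10 of the 21951 protein-coding genes of the annotation (GENCODE M21 on the mouse build mm10, which is GRCm38). For each gene, every peak of open chromatin from 50 kb upstream of its annotated start to 10 kb past its end was taken. Overlapping peaks of different libraries were joined into 1 region, and a region counted if 2 or more libraries had a peak in it. The 10 windows held 143 of the 73567 such regions in the genome, and no region fell in more than 1 window.

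The peaks came from ATAC-seq, in which a transposase cuts and tags accessible DNA, on bulk retina of wild-type (WT) mice in 18 libraries, 3 in each of 6 groups. The mice were 3 or 18 months old (3mo or 18mo). In 1 group per age, the pressure in the eye (intraocular pressure, IOP) had been raised to 30 mmHg in one eye, kept there for 1 hour, and the retina taken on day 2. A second group at each age held the opposite, untreated eyes of pressure-treated animals, called contralateral, and the last held retinas of untreated animals. The labels share a text naming the kinase inhibitor dasatinib and its vehicle, and no label puts a library in a drug arm. The study used the 6 retinas without pressure at each age to ask what ageing does to chromatin, and the IOP and contralateral retinas to ask what pressure does.

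Rods, cones and the bipolar neurons they contact arise from shared precursors. Otx2 commits these precursors, Crx acts below it to switch on photoreceptor genes, and Prdm1 holds back the bipolar program. Rorb acts above Nrl, the bZIP factor that directs cells to the rod fate, and Nr2e3 acts with Nrl to repress cone genes. Thrb and Rxrg are nuclear receptors that pattern the opsins of cones, Neurod1 is a basic helix-loop-helix factor that keeps photoreceptors alive, and Mef2d works with Crx at photoreceptor enhancers.

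On mm10, the annotation puts Crx at chr7:15865947-15879968 (minus strand), Otx2 at chr14:48657677-48673819 (minus strand), Nrl at chr14:55518978-55524981 (minus strand), Nr2e3 at chr9:59942771-59960659 (minus strand). It puts Rorb at chr19:18930605-19111196 (minus strand), Prdm1 at chr10:44437177-44528501 (minus strand), Neurod1 at chr2:79452521-79456751 (minus strand). The others are Mef2d at chr3:88142372-88172086 (plus strand), Thrb at chr14:17660261-18038090 (plus strand), Rxrg at chr1:167598384-167639623 (plus strand). The windows run from 64.2 kb (Neurod1) to 437.8 kb (Thrb).

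The lists held 36011 to 66160 peaks per library. Their shortest peaks fell into 3 classes, 79 to 89 bp in the 6 untreated libraries, 114 to 122 bp in 5 of the others and 148 to 157 bp in the remaining 7, so untreated and contralateral libraries also differed in how peaks were drawn. Among rod marker genes, Pde6b, Gnat1, Cnga1 and Nrl had a promoter called in all 18 libraries and Sag in none, and of 5 cone genes Arr3 was called in 18 libraries, Gnat2 in 17, Opn1sw in 13, Pde6h in 6 and Opn1mw in none. Promoters of 3 microglial, 3 pigment epithelial and 4 non-ocular marker genes were called in none. The lists give calls and not reads per region, so a region without a call may have been open below the caller's threshold. In bulk retina, a change in the number of cells of a type and a change in openness per cell cannot be told apart.

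The sequences below show what these open regions look like. They were chosen as promoters, prominent distal regions or regions that a result further on names, the Otx2 region at -28.9 kb among the last, and they are written 5′ to 3′ on the strand of the gene, read from the RefSeq assembly of GRCm38. Each name gives the gene and the distance of the summit from its start in the direction of the gene, negative when upstream. Capitals mark 1 of the core motifs bound by the 10 factors, on either strand, as searched further on. Promoter stretches end at the annotated start.

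At Crx, the promoter (-18 bp, chr7:15879969-15880118) held 2 copies of the Crx and Otx2 core on the antisense strand, and regions at -1.6 kb (chr7:15881473-15881672) and 15.6 kb (chr7:15864239-15864438) held 1 copy each, the latter beside an Nrl core.
Crx promoter: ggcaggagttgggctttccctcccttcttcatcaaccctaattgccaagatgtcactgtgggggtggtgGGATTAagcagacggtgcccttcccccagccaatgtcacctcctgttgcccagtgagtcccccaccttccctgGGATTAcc
Crx -1.6 kb: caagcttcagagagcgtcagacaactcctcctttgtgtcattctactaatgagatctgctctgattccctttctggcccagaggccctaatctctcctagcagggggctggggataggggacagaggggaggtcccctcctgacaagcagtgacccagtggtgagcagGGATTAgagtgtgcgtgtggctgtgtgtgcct
Crx 15.6 kb: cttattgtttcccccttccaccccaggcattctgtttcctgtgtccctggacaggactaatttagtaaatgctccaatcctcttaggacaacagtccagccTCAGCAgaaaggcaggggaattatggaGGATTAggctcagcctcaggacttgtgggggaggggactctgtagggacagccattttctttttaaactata

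At Nrl, the promoter (-30 bp, chr14:55524982-55525131) and the region at -1.9 kb (chr14:55526778-55526977) each held 1 nuclear receptor half-site, the letters that Rorb and its relatives bind.
Nrl promoter: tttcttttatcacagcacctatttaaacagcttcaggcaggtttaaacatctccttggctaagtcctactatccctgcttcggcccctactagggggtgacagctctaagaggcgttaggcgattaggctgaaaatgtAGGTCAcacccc
Nrl -1.9 kb: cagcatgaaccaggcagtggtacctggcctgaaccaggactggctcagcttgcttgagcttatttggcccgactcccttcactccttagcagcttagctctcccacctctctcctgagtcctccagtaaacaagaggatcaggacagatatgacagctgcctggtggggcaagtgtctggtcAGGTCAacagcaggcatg

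In the Nr2e3 intron 7.77 kb from the start (chr9:59952790-59952989) and in the Thrb intron at 312.1 kb (chr14:17972227-17972426), 4 core motifs lay within 200 bp.
Nr2e3 7.77 kb: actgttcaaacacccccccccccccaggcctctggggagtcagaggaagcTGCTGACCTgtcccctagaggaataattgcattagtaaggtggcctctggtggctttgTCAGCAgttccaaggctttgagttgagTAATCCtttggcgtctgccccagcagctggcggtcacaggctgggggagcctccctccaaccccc
Thrb 312.1 kb: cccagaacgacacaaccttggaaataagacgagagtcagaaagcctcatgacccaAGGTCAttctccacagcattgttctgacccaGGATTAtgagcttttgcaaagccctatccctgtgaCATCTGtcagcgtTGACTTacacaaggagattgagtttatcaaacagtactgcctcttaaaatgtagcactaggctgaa

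At Rorb, the upstream promoter (-71 bp, chr19:19111197-19111346), a promoter inside the gene (110.0 kb, chr19:19001118-19001267) and the strongest intronic region (112.0 kb, chr19:18999061-18999260) are shown. The promoter inside the gene was not called in every library, whereas the upstream promoter and the intronic region were.
Rorb promoter: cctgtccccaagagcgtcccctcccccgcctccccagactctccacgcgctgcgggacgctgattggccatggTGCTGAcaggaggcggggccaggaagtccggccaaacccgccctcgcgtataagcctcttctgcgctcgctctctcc
Rorb 110.0 kb: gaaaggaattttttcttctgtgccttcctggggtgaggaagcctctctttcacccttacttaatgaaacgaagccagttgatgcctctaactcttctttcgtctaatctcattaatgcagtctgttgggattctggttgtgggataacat
Rorb 112.0 kb: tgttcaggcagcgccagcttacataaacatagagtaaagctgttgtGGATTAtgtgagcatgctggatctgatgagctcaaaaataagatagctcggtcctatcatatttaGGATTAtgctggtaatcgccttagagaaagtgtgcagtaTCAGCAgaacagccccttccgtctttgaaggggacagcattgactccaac

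Regions in introns of Prdm1 (51.8 kb, chr10:44476595-44476794) and Mef2d (5.68 kb, chr3:88147954-88148153) each held 1 Crx and Otx2 core, the latter with a nuclear receptor half-site.
Prdm1 51.8 kb: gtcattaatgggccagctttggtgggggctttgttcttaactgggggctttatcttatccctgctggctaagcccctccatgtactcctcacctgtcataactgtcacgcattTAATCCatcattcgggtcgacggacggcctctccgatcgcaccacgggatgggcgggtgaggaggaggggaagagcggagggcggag
Mef2d 5.68 kb: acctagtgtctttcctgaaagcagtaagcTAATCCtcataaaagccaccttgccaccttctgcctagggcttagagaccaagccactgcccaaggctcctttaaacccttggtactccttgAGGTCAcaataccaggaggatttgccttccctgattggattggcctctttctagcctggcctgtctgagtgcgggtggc

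Upstream of Otx2, inside the antisense gene Otx2os1, the strongest region (-44.3 kb, chr14:48717978-48718177) held none of the motifs. The region at -28.9 kb (chr14:48702655-48702854) also held none, and its capitals mark 128 bp made of 4.27 copies of a 30 bp tandem repeat.
Otx2 -44.3 kb: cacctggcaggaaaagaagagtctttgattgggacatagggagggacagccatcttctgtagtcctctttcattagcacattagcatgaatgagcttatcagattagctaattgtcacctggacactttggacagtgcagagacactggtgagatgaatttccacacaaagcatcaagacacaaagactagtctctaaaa
Otx2 -28.9 kb: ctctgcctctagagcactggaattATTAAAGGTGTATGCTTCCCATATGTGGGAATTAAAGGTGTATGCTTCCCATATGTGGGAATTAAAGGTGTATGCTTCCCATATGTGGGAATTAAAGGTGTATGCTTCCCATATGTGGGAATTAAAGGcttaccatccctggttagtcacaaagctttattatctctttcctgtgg

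The first question was how open these loci are in the retina. Every one of the 10 genes had a promoter region called in all 18 libraries, a promoter being reaching 1 kb before and 100 bp past a transcript start in the basic set of the annotation. At Nr2e3 and Prdm1 the outermost start, from which distances are counted, belongs to a non-coding transcript outside that set, and the starts of their coding transcripts lie inside the gene. Of the 143 regions, 64 (44.8%) were called in all 18 libraries, against 33.6% of all regions. The excess lay outside promoters. Of the members' regions in introns, 36.8% were called in all 18 libraries against 22.3% of all intronic regions, and of the intergenic ones 44.8% against 24.2%, whereas for promoter regions of any gene the shares were 62.1% and 74.9%. These shares describe the loci and were not tested.

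**Figure D1:**
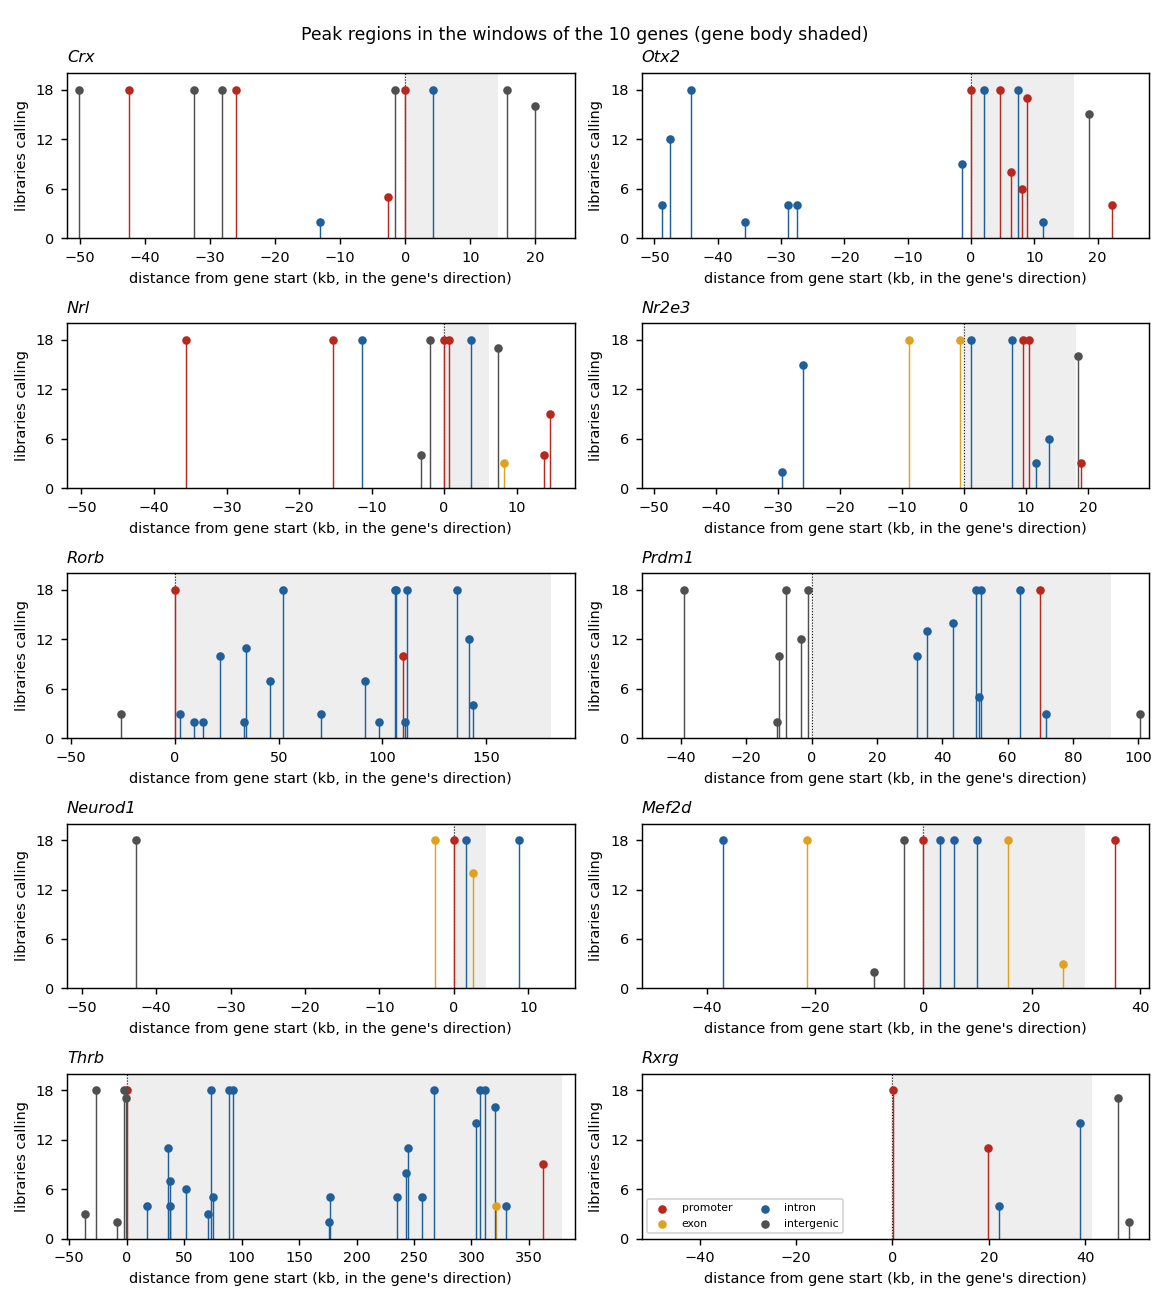
Each panel plots the regions of 1 gene by the distance of the median summit from the gene start (kb, horizontal axis, gene body shaded) and the number of the 18 libraries that called the region (vertical axis), coloured by class. All 10 genes have a promoter region at 18 libraries, and Thrb and Rorb carry many regions in introns called in few libraries.

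The strength of a region within a library was taken as its percentile, the share of that library's peaks whose −log10 q did not exceed that of the region. On this scale Rorb had the strongest promoter of the 10. Its upstream promoter region lay at percentiles 89.2 to 97.0, with a median of 93.6. The Prdm1 promoter region, at its coding start 69.8 kb inside the annotated gene, had a median percentile of 90.1 (range 81.4 to 92.8). The Thrb, Neurod1 and Crx promoters followed at medians of 85.5, 84.4 and 82.8, and their ranges overlapped (79.4 to 88.8, 79.2 to 87.5 and 77.5 to 87.8), so their order is within the spread of the libraries.

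Mef2d and Nrl had promoter medians of 78.1 (72.3 to 85.0) and 74.9 (66 to 80.9). The Nr2e3 promoter, at 10.5 kb (52.6 to 75.8, median 67.2) and the Rxrg promoter (30.5 to 79.6, median 66) were weaker and spread more widely. Otx2 stood lowest. Its upstream promoter region was called in all 18 libraries at percentiles 10.4 to 66.2 with a median of 40.4, and a second Otx2 promoter region 8.79 kb inside the gene was called in 17 libraries with a median of 43.8. The remaining Otx2 promoter regions, at 8.1 and 6.23 kb, were called in 6 and 8 libraries. Of the 10, Otx2 thus had the least prominent promoter region and the largest number of them, 4.

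**Figure D2:**
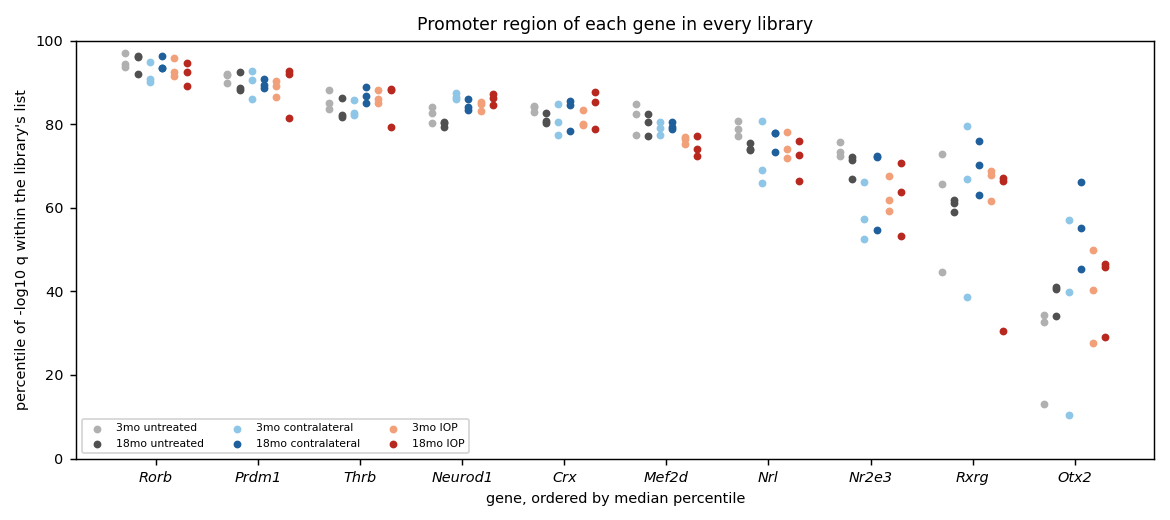
For each gene (horizontal axis, ordered by median) the points give the percentile of −log10 q (vertical axis) of its promoter region called in all 18 libraries, 1 point per library, coloured by group. Rorb lies between 89.2 and 97.0 in every library, while Otx2 runs from 10.4 to 66.2.

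Distal regions were often as prominent as promoters. At Crx, 9 of 12 regions were called in all 18 libraries. The intergenic region 15.6 kb from the start, past the end of the gene, had a median percentile of 87.0 (79.0 to 91.6), and that at -1.6 kb a median of 80.1. At Rorb, the intronic region at 112.0 kb had a median of 86.0 (79.7 to 88.2), above the 4 other non-promoter regions of the gene called in 18 libraries. At Prdm1, the region at -1.01 kb had a median of 89.4 (80.9 to 95.4), close to that of the promoter itself.

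The strongest non-promoter regions of the other genes stood lower. At Nrl it was the region at -1.9 kb (median percentile 77.3, range 59.9 to 84.6), above the 74.9 of its promoter. At Nr2e3 it was the intronic region at 1.17 kb (76.1, range 67.0 to 82.7), at Mef2d that at 5.68 kb (80.2, range 76.8 to 85.7) and at Neurod1 the intergenic region at -42.7 kb (76.3, range 60.7 to 89.2). At Thrb it was the intronic region at 88.8 kb (70.0, range 36.2 to 81.8) and at Otx2 that at -44.3 kb (64.6, range 31.5 to 83.8). Rxrg had no region called in all 18 libraries except its promoter. The windows also reach other genes: the highest percentile in the Crx, Nrl and Mef2d windows belonged to promoters of Selenow (87.5), Dcaf11 (91.8) and 1700113A16Rik (94.2). Of the 12 Crx, 12 Nrl and 11 Mef2d regions, 4, 5 and 9 had the member's own start as the nearest protein-coding start.

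Regions were spread unevenly. Per 100 kb of window, Otx2 had 22.3 regions, Nrl 18.2 and Crx 16.2, and Thrb and Rxrg had 6.85 and 5.93. In number, Thrb led with 30 regions in a window of 437.8 kb, of which 9 were called in all 18 libraries and 13 in 2 to 6. Neurod1 and Rxrg had 6 regions each, of which 5 and 1 were called throughout. The 79 regions that were not called in every library had a median percentile of 16.9 where they were called, against 69.1 for the 64 that were, so the variable calls sat near the bottom of the lists.

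The letters around the summits were searched for the core motifs that the 10 factors themselves bind. Within 200 bp centred on the summit, both strands were searched for TAATCC (Crx and Otx2), TGCTGA (Nrl), AGGTCA (the half-site of Rorb, Thrb and Rxrg), AAGTCA (Nr2e3), CAGATG (Neurod1), CTAAAAATA (Mef2d) and TTTCACTTT (Prdm1). No letters of 1 motif are contained in another, although matches can share bases, as TGCTGA and AGGTCA do in the Nr2e3 sequence above. Among the 46 non-promoter regions of the members called in all 18 libraries, 14 (30.4%) held AGGTCA against 16.4% of the 14066 such regions in the genome. For TAATCC the numbers were 13 (28.3%) against 21.5%. For CAGATG the shares were 19.6% and 18.3%, for TGCTGA 15.2% and 18.9%, and for AAGTCA 4.35% and 8.87%. The Mef2d and Prdm1 letters occurred in none of the 143 regions and in 0.618% and 0.227% of all regions. These shares are descriptions, and a match is not evidence of binding.

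**Figure D3:**
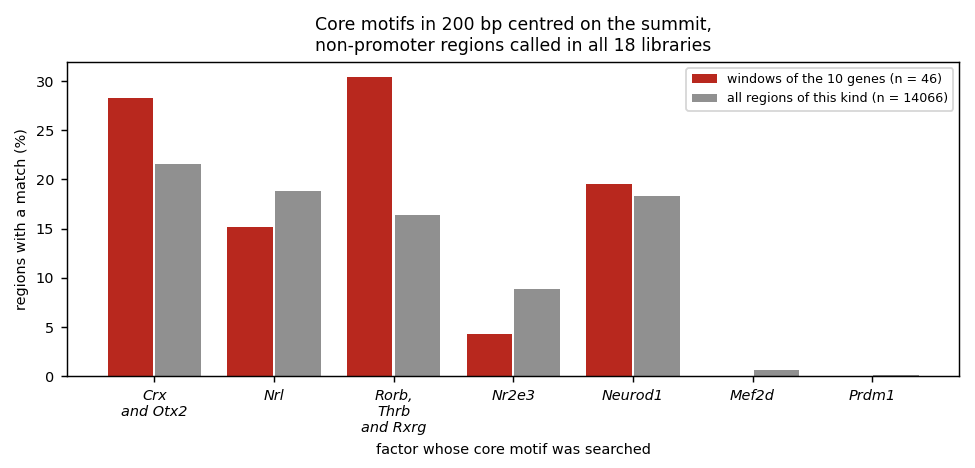
Bars give the percentage of non-promoter regions called in all 18 libraries (vertical axis) that hold each core motif within 200 bp centred on the summit, for the 46 regions in the windows of the 10 genes and for all 14066 such regions, by the factor whose motif was searched (horizontal axis). The nuclear receptor half-site is at 30.4% against 16.4%, and the Crx and Otx2 core at 28.3% against 21.5%.

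Over all 143 regions the shares lay nearer to those of the genome, 19.6% against 14.7% for AGGTCA and 18.2% against 15.4% for TAATCC. In the 16 promoter sequences that RefSeq lists for the 10 genes (from shortly before to just after each start, GRCm38.p6), TAATCC was found in those of Crx, Thrb and Otx2, against 7.06% of all 32851 promoters. TGCTGA was found in 5, those of Neurod1, Mef2d, Rorb and Otx2 (2 starts), against 19.5% of all RefSeq promoters. Of the printed regions, the Thrb intron at 312.1 kb joined the Crx and Otx2, Neurod1, nuclear receptor and Nr2e3 letters, and the Nr2e3 intron at 7.77 kb held 2 Nrl letters, 1 Crx and Otx2 core and 1 nuclear receptor half-site.

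The second question was what age did to these loci, from 6 retinas without pressure at 18mo against 6 at 3mo. Of the 143 regions, 0 were called more or less often at 18mo at an unadjusted p under 0.05 in Fisher's exact test. Among the 9868 regions of the genome whose calls could give such a p, 3.19% were called more often and 0.385% less often at 18mo, and 13 of the members' regions were in that number, with a smallest exact p of 0.0606. No region of the genome had an adjusted p under 0.05, the smallest being 0.344.

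The number of peaks in the window told 1 gene apart. Thrb, the thyroid hormone receptor needed for the green cone opsin, had 22, 21 and 25 peaks in 18mo untreated and 23, 19 and 24 in 18mo contralateral retinas. In 3mo retinas it had 15, 17 and 25 peaks (untreated) and 13, 19 and 13 (contralateral). The 2 ages overlapped through 2 of the 3mo retinas, the untreated one with 25 peaks and the contralateral one with 19. The means were 22.3 ± 2.16 and 17 ± 4.56 (SD, n = 6 each), a difference of 5.33 peaks with p = 0.0411 in a two-sided exact permutation test over 924 arrangements and an adjusted p of 1.0 over all genes. Over 18744 gene windows, 2.49% had more and 0.203% fewer peaks at 18mo at this threshold, none with an adjusted p under 0.05.

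Of the 30 Thrb regions, 15 were called in more 18mo than 3mo controls, 0 in fewer and 15 in as many, where over all regions of the genome 30.0% were called in more and 18.0% in fewer. These calls are the same peaks as in the window count that told Thrb apart, so they are no further support for it. The widest gap, noted after the values were seen, was at the intronic region at 75.4 kb, called in 4 of 6 retinas at 18mo and 0 of 6 at 3mo (Fisher's exact p = 0.0606). The intronic region at 244.5 kb was called in 5 and 2 retinas, and that at 35.6 kb in 6 and 4. The added calls were thus spread over many regions, most of them in introns, each with a difference of 1 to 4 retinas.

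The Thrb difference depended on how the lists were cut. With as many peaks in every library, the 36011 with the highest −log10 q, it was 0.333 peaks (p = 0.851, exact permutation), and with only peaks of −log10 q of at least 3 it was 3.83 (p = 0.108). As peaks per 10000 of the list it was 0.813 (exact permutation p = 0.0043), and within kinds of control 5.33 (p = 0.045). Without any 1 of 8 libraries (3mo contralateral replicates 1 and 3, 3mo untreated 4 and 5, 18mo contralateral 1 and 3, 18mo untreated 4 and 6) p rose to between 0.0519 and 0.0736 in the exact permutation test.

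Crx had 1.17 fewer peaks at 18mo, 9.83 ± 0.753 against 11 ± 0.894 (SD, n = 6 each; exact permutation p = 0.0801), and without 3mo contralateral replicate 3, 3mo untreated replicate 4 or 18mo untreated replicate 6 that p was 0.0368, 0.0368 and 0.0325. Within the 3 classes of shortest peak its difference was -1.5 peaks with an exact permutation p of 0.0278, and that of Thrb 4.72 with p = 0.0222. Otx2 had 12 ± 2.37 peaks at 18mo and 10.2 ± 2.48 at 3mo (SD, n = 6 each; exact permutation p = 0.26). The remaining 7 genes differed by -1.33 to 0.667 peaks, with exact permutation p of 0.578 to 1.0.

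**Figure D4:**
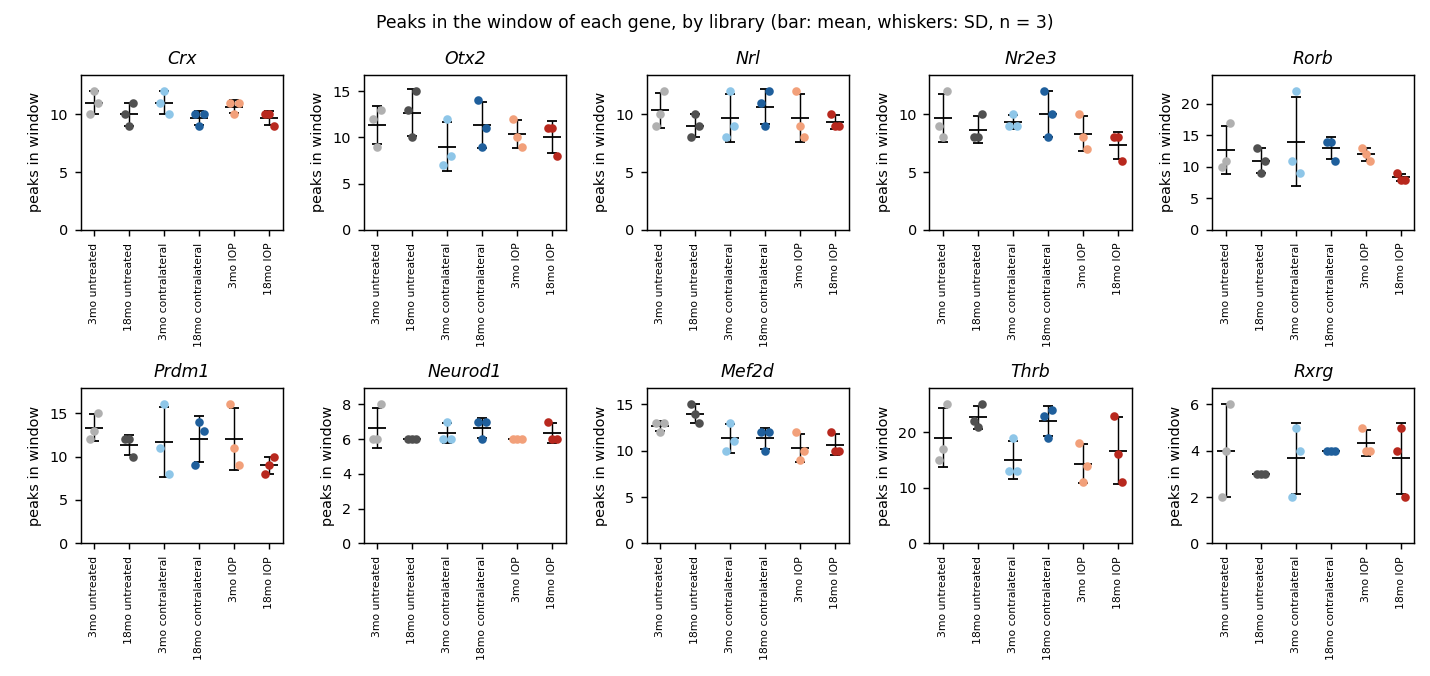
Each panel plots the number of peaks (vertical axis) in the window of 1 gene in every library of the 6 groups (horizontal axis), with the mean as a bar and the SD as whiskers, n = 3. Thrb runs from 13 to 25 in the 3mo retinas without pressure and from 19 to 25 at 18mo.

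Age was also asked of strength, among regions called in all 12 retinas without pressure. The percentiles were turned into normal scores, the quantiles of a standard normal distribution, and fitted with limma. Of 69 such regions of the members, 0 had an adjusted p under 0.05 and 1 an unadjusted p under 0.05, where of all 27019 regions 0.0037% and 5.34% did. The region was the Prdm1 intron at 51.8 kb. Its percentiles were 52.9, 47.6 and 62.6 (untreated) and 52.4, 69.9 and 46.2 (contralateral) at 3mo, and 54.7, 32.5 and 31.3 (untreated) and 25.8, 3.17 and 49.6 (contralateral) at 18mo. Retinas of 18mo were mostly lower, with overlap, and the difference was -0.69 ± 0.27 (SE) normal scores (limma adjusted p = 0.87). In IOP retinas the percentiles were 56.6, 64.0 and 64.2 at 3mo and 37.2, 28.3 and 8.14 at 18mo, which do not overlap. The IOP retinas were outside this test, but they may share mice with its contralateral retinas and are no independent check. Ranked by the fold of the peak in place of −log10 q, the difference with age was -0.09 ± 0.31 (SE, limma adjusted p = 0.986), close to 0. The Otx2 upstream promoter was next, 0.48 ± 0.23 (SE) higher at 18mo (limma adjusted p = 0.929). The median difference was 0.002 over the members' regions and 0.062 over all.

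The remaining question was what pressure did, from 6 IOP and 6 contralateral retinas, 3 of each at each age. Calls were compared by an exact conditional test within ages. Of the 143 regions, 0 passed an unadjusted p under 0.05, 6 of them could have, and the smallest exact p was 0.05. Among the 5572 regions of the genome that could have, 1.62% were called more often and 3.43% less often after IOP. No region of the genome had an adjusted p under 0.05, the smallest being 0.397.

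The region with that smallest p was a promoter of Rorb, at the start inside the gene (110.0 kb, printed above), from which a shorter Rorb transcript is annotated. It was called in 0 of 6 IOP retinas, in 1 of 3 contralateral retinas at 3mo and 3 of 3 at 18mo, and in 6 of 6 untreated retinas. Its percentiles where called ran from 8.64 to 47.4, whereas the upstream Rorb promoter was called in all 18 libraries at 89.2 or above.

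At each age, regions called in 3 of 3 retinas of one arm and 0 of 3 of the other were counted, without a test. At 3mo there were 0 gained and 0 lost among the 143, against 0.217% and 0.241% of all regions. At 18mo there were 0 gained and 5 lost, against 0.239% and 2.23% of all regions. In the lists behind this count, 18mo IOP retinas held 48688, 48723 and 36011 peaks and 18mo contralateral ones 60755, 51166 and 57297. With an equal number of peaks in every library, 0 of the 5 met the rule, and with −log10 q of at least 3 the Rorb promoter and the Prdm1 region at -3.24 kb did. Leaving out a library loosens the rule, so the count could then only stay or rise. It was 11 without 18mo contralateral replicate 2, 8 without 18mo IOP replicate 1 and 9 without 18mo IOP replicate 2.

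Besides the Rorb promoter, the 5 regions lost at 18mo were the following. A region 8.31 kb from the Nrl start (chr14:55516465-55516790), in an exon of the neighbouring gene Cpne6, was called in the 3 contralateral retinas of 18mo and in none of the other 15 libraries, with percentiles up to 20.1. A region in the Prdm1 intron at 35.2 kb (chr10:44492964-44493617) was called in 13 libraries, all 3 of 3mo IOP among them and 0 of 3 of 18mo IOP. The region at -3.24 kb of Prdm1 (chr10:44531557-44531850) was called in 12 libraries, of which 1 was an IOP retina. A Thrb intron region at 51.7 kb (chr14:17711832-17712029) was called in 3 untreated retinas, 3 contralateral retinas of 18mo and no IOP retina. None of the 5 reached a percentile above 49.3 in any library.

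The Otx2 region at -28.9 kb, which lay outside the naming rule and was picked after its values were seen, went the other way. It was called in 2 of 3 IOP retinas at each age and in 0 of the 12 other libraries (exact conditional p = 0.08), at percentiles of 3.49 and 30.3 (3mo) and 29.2 and 40.7 (18mo). How many regions of the genome were called in IOP retinas alone was not counted. Its summit lies in the tandem repeat printed above, and 45.8% of the region is soft-masked as repeat in the assembly against a median of 7.62% over all regions. All 4 libraries that called it had a shortest peak of 148 bp or more. So did 3mo contralateral replicates 1 and 3 (152 bp) and 18mo contralateral replicate 2 (149 bp), which did not call it. The part of peak drawing in these calls was not tested.

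**Figure D5:**
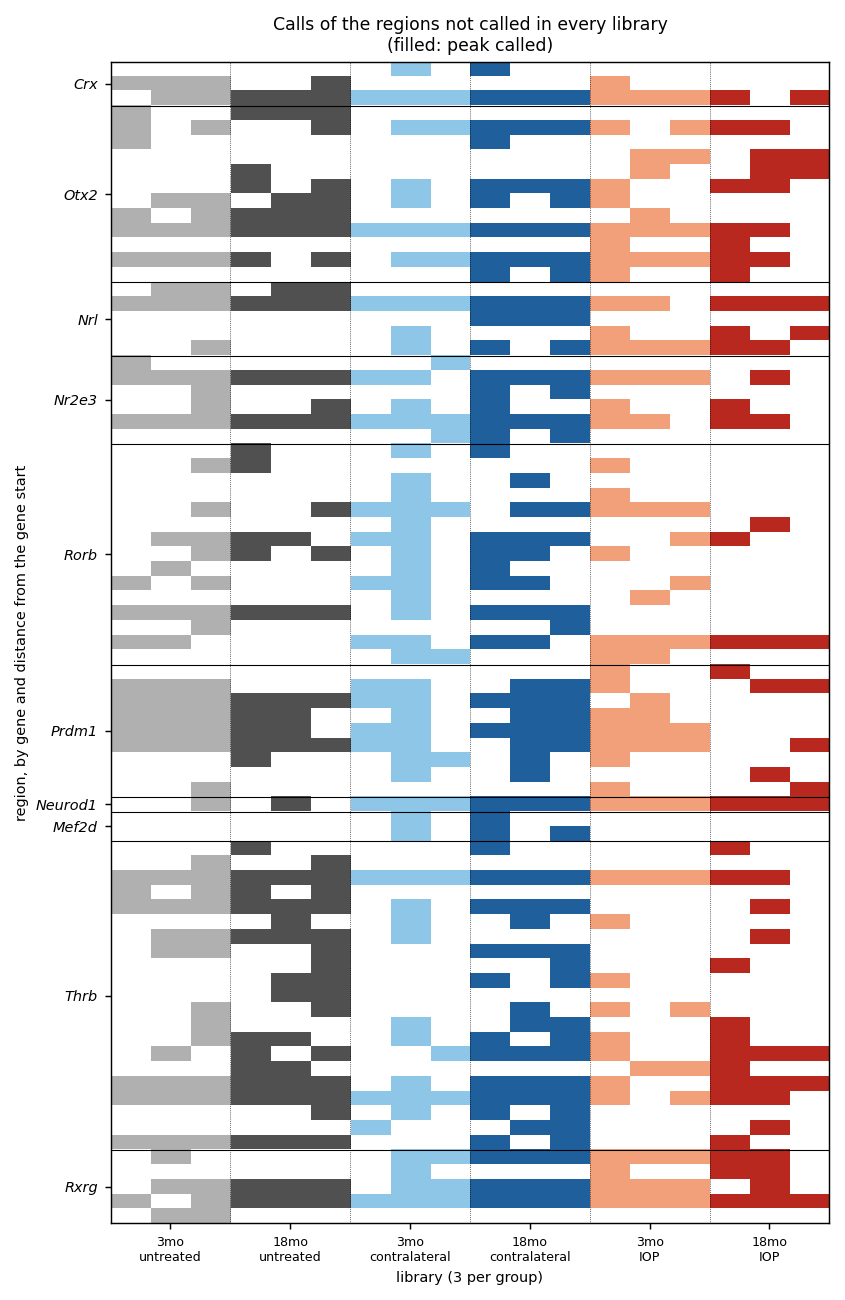
Rows are the 79 regions not called in all 18 libraries, by gene and then by distance from the gene start, columns are the 18 libraries by group, and a filled cell is a call, coloured by group. Thrb fills more cells in 18mo than in 3mo retinas without pressure, and the 18mo IOP columns are emptier than the 18mo contralateral ones at Rorb and Prdm1.

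By direction alone, 14 of the 143 regions were called in more IOP than contralateral retinas, 43 in fewer and 86 in as many. Over all regions 11.5% were called in more and 36.6% in fewer, and the members' shares were 9.79% and 30.1%. The 6 regions of Neurod1 were each called in as many retinas of both arms.

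In window counts, 0 of the 10 genes passed an exact permutation p under 0.05 over 400 arrangements within ages, where 0.102% of 18640 gene windows had more and 1.82% fewer peaks after IOP at this threshold, none with an adjusted p under 0.05. Nr2e3, the rod factor that represses cone genes, came nearest. It had 9, 10 and 9 peaks in 3mo contralateral and 10, 8 and 7 in 3mo IOP retinas. At 18mo it had 12, 8 and 10 peaks in contralateral and 8, 8 and 6 in IOP retinas. The arms overlapped at both ages, and the mean difference was -1.83 peaks (exact permutation p = 0.075, adjusted p = 1.0). It was -1.17 with an exact permutation p of 0.045 at an equal number of peaks, and -0.169 with p = 0.26 per 10000 peaks. Without 3mo IOP replicate 1 or 18mo contralateral replicate 2 the exact permutation p of Nr2e3 was 0.015 and 0.045. Among the rod marker genes, Pde6b and Cnga1 had fewer peaks after IOP, with differences of -2.33 and -1.5 and exact permutation p of 0.04 and 0.035.

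Rorb had 14, 14 and 11 peaks in 18mo contralateral and 9, 8 and 8 in 18mo IOP retinas, which do not overlap. At 3mo it had 11, 22 and 9 in contralateral and 13, 12 and 11 in IOP retinas, which do. The mean difference over both ages was -3.33 (exact permutation p = 0.145), and without 1 library it ran from -1.33 (p = 0.375, without 3mo contralateral replicate 2, the retina with 22 peaks) to -4.58 (p = 0.03, without 3mo contralateral replicate 3). At an equal number of peaks the Rorb difference was -0.5 (exact permutation p = 0.7), and per 10000 peaks -0.314 (p = 0.19). The effect at 18mo differed from that at 3mo by -2.67 peaks with p = 0.71 in an exact permutation test of the difference. Over the 10 genes the p of this difference between ages was 0.35 to 1.0, so no effect of IOP was shown to differ by age. Otx2 had a mean difference of 0 peaks, and per 10000 peaks a difference of 0.30 with an exact permutation p of 0.02. At an equal number of peaks it was 1.5 (exact permutation p = 0.065). The same count gives a higher value per 10000 peaks in a shorter list, and the part of list length was not tested. The share of all gene windows was counted only for plain counts of peaks. Summed over the 10 windows, the libraries held 79 to 132 peaks, or 18.9 to 22.4 per 10000 peaks of the list.

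In strength, 66 regions of the members were called in all 12 retinas of both arms. With limma, 0 had an adjusted p under 0.05 and 3 an unadjusted p under 0.05, where of all 26566 regions 0.00376% and 7.68% did. All 3 were lower after IOP. Ranked by fold, 4 regions had an unadjusted limma p under 0.05, and 0 of all 26566 regions had an adjusted p under 0.05. The share of all regions at an unadjusted p was not counted by fold, so the 4 are descriptions. Of these, the region of Nr2e3 at 9.47 kb (-0.36) and that of Neurod1 at -42.7 kb (-0.69) were lower. Those of Nr2e3 at 7.77 kb (0.33) and Nrl at 3.69 kb (0.34) were higher. By fold, the Rorb and Mef2d regions given below did not pass. The region inside Nr2e3 at 9.47 kb, at a promoter of the overlapping gene Gm7616, had percentiles of 57.8, 68.9 and 65.0 (3mo contralateral) and 58.2, 45.5 and 47.7 (3mo IOP). At 18mo they were 74.5, 68.2 and 72.2 (contralateral) and 67.2, 63.7 and 56.1 (IOP). The arms did not overlap at 18mo and did at 3mo, and the difference was -0.30 ± 0.09 (SE) normal scores (limma adjusted p = 0.551).

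The Rorb intron region at 52.3 kb differed by -0.89 ± 0.40 (SE, limma adjusted p = 0.635). Its IOP percentiles were scattered, at 55.8, 15.5 and 28.0 (3mo) and 47.0, 7.85 and 0.14 (18mo), against 41.2 to 49.3 in contralateral and 2.5 to 54.5 in untreated retinas. The Mef2d region at -21.5 kb, in an exon of Iqgap3, differed by -0.19 ± 0.09 (SE, limma adjusted p = 0.635). The median difference was -0.05 over the members' regions, 46 lower and 20 higher, and -0.11 over all. By fold, 33 were lower and 33 higher. In the test of the difference between ages, by −log10 q, 0 of the 66 had an unadjusted limma p under 0.05. Every one of the 10 genes kept a promoter region called in all 6 IOP retinas.

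Untreated and contralateral retinas were compared as well, since they differ in kind and in shortest peak. Of all regions that could pass, 5.89% were called more often and 5.55% less often in untreated retinas at an unadjusted p under 0.05. Of the 143, 13 could pass, and of these 1 was called more often and 0 less often. It was a promoter region of Otx2 at 8.1 kb, called in 5 of 6 untreated and 0 of 6 contralateral retinas (Fisher's exact p = 0.0152, adjusted p = 0.132). The kind of animal and the drawing of peaks cannot be told apart here.

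Beyond the 10, other regulators of photoreceptor development and function were looked at in the same way. Casz1, Samd7, Samd11, Sall3, Esrrb, Onecut1, Rax and Pias3, 8 genes in all, had a promoter called in all 18 libraries. The promoters of Notch1 and Hes1, which act in dividing progenitors, were called in 10 and 7 libraries, and that of Tbx2 in none. In window counts, 0 of these genes passed an exact permutation p under 0.05 with age or after IOP.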

How the data were processed

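Mouse retina libraries were prepared by transposition per the study's methods, although the preparation text in the labels describes crosslinking and immunoprecipitation. The labels give day 2 as collection day and the study's text another day, and day 2 is used. Per the labels, STAR 2.7.8a, bedtools 2.29.2 and MACS2 were used on mm10, and the authors deposited 1 peak list per library without pooling replicates. Read filtering was not given in the sources used here, and read depth is unknown. In the deposited lists the score is a whole number made from the q-value, the fold is the ratio of summit pileup to local background, and the −log10 p-value and −log10 q-value belong to the summit. The lowest deposited −log10 q was 1.301 to 1.325 over the lists.

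Peaks overlapping by 1 bp were merged, and regions in at least 2 libraries were kept. The study's count model was not applied, since lists hold no reads. Calls were tested by Fisher's exact test (age) and an exact conditional test within ages (IOP), window counts by two-sided exact permutation tests, and normal scores of within-list ranks by limma 3.58.1 in R 4.3.3, each over the whole genome with Benjamini-Hochberg adjustment and a threshold of 0.05. Each test was tried on simulated data. The study describes single eyes and biological replicates, so the 3 IOP retinas of an age, and the 3 contralateral ones, came from different mice. No label says which IOP and contralateral retinas share a mouse, or whether untreated retinas do. The genes and lists were chosen with earlier results of these data known. Named were, per gene, its promoter regions, its strongest other region called in all 18 libraries, regions with an unadjusted p under 0.05 and regions exclusive to one arm. The strongest other region is given among those not at a promoter of another gene, with the latter beside it. Results for some genes of the marker and regulator lists are not reported here.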

Additional observations from a re-analysis of the deposited data

How the results depend on the processing

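Under alternatives to the peaks, window or strata, the counts of members' regions that differed in calling or rank with age or after IOP were 0 throughout, as in the report. Requiring a peak to cover 50% of a region left 18 regions called in all 18 libraries in place of 64, and gave 2 regions exclusive to one arm at 3mo in place of 0. This rule by construction drops short peaks on wide merged regions. At 18mo, 2 regions in place of 5 were exclusive at a −log10 q of at least 3, and 0 at an equal number of peaks. With age, 0 genes in place of 1 differed in window count with the stricter threshold or an equal number of peaks, and 2 within classes of shortest peak. After IOP, 1 gene in place of 0 differed per 10000 peaks (Otx2, higher) and another 1 with an equal number of peaks (Nr2e3, lower). The cause was not tested.

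Leaving out 1 library at a time gave 0 to 1 regions for calls with age, 0 to 2 for calls after IOP, 0 to 2 exclusive at 3mo, 6 to 11 exclusive at 18mo, 0 to 1 genes for window counts with age, 0 to 1 after IOP, and 0 regions in both rank fits. Calls with age gave 1 region without 3mo contralateral replicate 2, 18mo contralateral replicate 2, 18mo untreated replicate 4 or 18mo untreated replicate 5. Calls after IOP gave 2 without 3mo contralateral replicate 3 and 1 without 3mo contralateral replicate 1, 3mo IOP replicate 1 or 2, or 18mo IOP replicate 1. At 3mo, 2 regions were exclusive without IOP replicate 1 and 1 without contralateral replicate 2 or IOP replicate 2. At both ages the exclusive counts could only stay or rise, since the rule then asks for fewer libraries. In window counts with age, the 1 gene was Thrb when any of 4 libraries was left out and Crx when any of 3 was. Window counts after IOP gave 1 gene without 3mo contralateral replicate 3 (Rorb), 3mo IOP replicate 1 (Nr2e3) or 18mo contralateral replicate 2 (Nr2e3). At an unadjusted p, limma gave 4 regions with age in place of 1 with kind of control as a covariate and 2 by fold (the Prdm1 regions at 69.8 and 63.7 kb). After IOP it gave 4 in place of 3 by fold, of which 1 was among the 3. The share of all regions at an unadjusted p was not counted for these fits, nor for the fit with a replicate block below.

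IOP and contralateral libraries share replicate numbers. Same-numbered libraries had correlations of their deviations of -0.254, -0.26 and 0.123 (3mo) and 0.296, 0.161 and -0.101 (18mo). The highest correlation, 0.425, was between 3mo IOP replicate 1 and 3mo contralateral replicate 2, which were of the same class of shortest peak. A shared mouse and a shared way of drawing peaks cannot be told apart here, so these values do not show whether the numbers pair the libraries. With the replicate block the counts after IOP were 0 for calls, 0 for window counts and 0 for ranks, as without it, and at an unadjusted p limma gave 2 regions in place of 3.

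Lists without reads limit these comparisons: a region near the caller's threshold can be missed in 1 library and called in the next, 3 libraries per group leave little power for single regions, and list length and peak width differed between groups.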

Other observations

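A few regions of the 10 genes followed the kind of library more than age or pressure, and none of those given here passed the exact test of untreated against contralateral retinas. A region at -3.15 kb of Nrl, which is 100.0% soft-masked as repeat in the assembly, was called in 4 of 6 untreated retinas and in no other library. A Thrb intron region at 17.3 kb was likewise called in 4 of 6 untreated retinas and no other library. An exonic region at 2.51 kb, which overlaps Neurod1, Cerkl and Gm26755, was called in all 12 IOP and contralateral retinas and in 2 of 6 untreated ones. The untreated libraries also had the shortest peaks (79 to 89 bp), and the part of that difference in these calls was not tested.

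The genes with more than 1 annotated start differed in how their starts were called. The Rxrg start 19.8 kb inside the gene had a promoter region called in 11 libraries with a median percentile of 12.2, against 18 libraries and 66 at the upstream start. The 2 Nrl promoter regions, at -30 and 715 bp, were called in all 18 libraries with medians of 74.9 and 66.6.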
